A study of Homo sapiens with 6 samples.

Results

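SPRED1, SPRED2, SPRY1, SPRY2, SPRY4, DUSP4, DUSP5, DUSP6, ETV4 and ETV5 are transcripts whose levels are widely read as reporters of ERK signalling. These 10 genes were taken by symbol from a table of 17758 genes, without a threshold on any value. RNA was measured in 6 libraries of T47D, an established luminal, oestrogen receptor-positive line from a human breast ductal carcinoma. In 3 libraries the cells stably carried a lentiviral short hairpin RNA against CUEDC1 (shCUEDC1), and in the other 3 a non-targeting one (shNC). Both groups were grown in the same serum-containing RPMI medium with antibiotics, and the labels give no stimulation, serum withdrawal or drug. The labels count neither hairpins nor infections. Loss of CUEDC1 and an off-target effect therefore cannot be told apart. The series calls the 3 libraries of a group biological replicates without saying whether the lines were infected separately, and each p-value here weighs a difference against the scatter of libraries that may share 1 line. The table holds RNA alone, and neither ERK phosphorylation nor protein was analysed here.

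Growth factor receptors activate RAS, which switches on the kinase cascade of RAF, MEK and ERK. Active ERK phosphorylates transcription factors, and among the genes they switch on are inhibitors of the same cascade, so that the signal limits itself. SPRED proteins recruit the RAS GTPase-activating protein neurofibromin to RAS, Sprouty (SPRY) proteins act between receptors, RAS and RAF, and DUSP4, DUSP5 and DUSP6 are phosphatases that remove the activating phosphates from ERK. ETV4 and ETV5 are ETS transcription factors of the PEA3 group that carry the signal on to further genes. Several of these genes are kept down by the repressor Capicua (CIC) until ERK removes it.

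The bases around the transcription start are shown for 3 members that stand for different behaviours in the libraries. DUSP6 and SPRY4 varied most among the shNC libraries, and SPRED1 fell in shCUEDC1. Each run covers 250 bases before to 50 bases after the start (RefSeq, GRCh38.p14), is written 5′ to 3′ on the strand of the gene, and has in capitals any match to the Capicua octamer. The windows are chr12:89352452-89352751 (minus strand) for DUSP6, chr5:142324198-142324497 (minus strand) for SPRY4 and chr15:38252586-38252885 (plus strand) for SPRED1.
DUSP6: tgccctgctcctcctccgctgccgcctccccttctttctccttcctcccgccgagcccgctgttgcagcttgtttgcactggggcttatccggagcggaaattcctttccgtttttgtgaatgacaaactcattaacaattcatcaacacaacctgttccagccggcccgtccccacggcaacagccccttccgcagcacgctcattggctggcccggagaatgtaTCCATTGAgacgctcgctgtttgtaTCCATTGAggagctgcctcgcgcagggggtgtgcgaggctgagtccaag
SPRY4: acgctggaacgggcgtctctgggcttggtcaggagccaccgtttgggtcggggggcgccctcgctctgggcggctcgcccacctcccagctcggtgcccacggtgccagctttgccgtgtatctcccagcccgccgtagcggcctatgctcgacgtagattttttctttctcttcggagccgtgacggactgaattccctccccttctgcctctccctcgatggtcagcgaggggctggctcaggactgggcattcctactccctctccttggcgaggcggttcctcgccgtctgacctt
SPRED1: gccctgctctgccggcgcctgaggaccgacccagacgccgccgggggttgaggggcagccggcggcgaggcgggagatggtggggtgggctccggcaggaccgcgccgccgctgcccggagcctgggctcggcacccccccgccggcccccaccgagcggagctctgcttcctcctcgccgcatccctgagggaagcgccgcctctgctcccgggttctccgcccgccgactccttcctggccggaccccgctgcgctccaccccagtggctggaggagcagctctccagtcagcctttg

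RefSeq windows were searched for 6 of the 10 members, 10 windows in all. DUSP4 was left out of the search, and no window was available for DUSP5, ETV4 and ETV5. The Capicua octamer was searched on both strands as TGAATGAA, TGAATGGA, TCAATGAA and TCAATGGA. It occurred in 3.77% of the 35116 windows of the same length in the genome, and 0.327% held it at least 2 times. The DUSP6 window held it 2 times, in both cases as TCCATTGA on the strand shown, which is TCAATGGA on the other strand, starting at positions -24 and 2 relative to the start. No other member window searched held it. The AP-1 pattern was searched as TGANTCA, which allows any base in the middle. It matched 2 times in 1 of the SPRED2 windows, as TGACTCA at position -6 and as TGAATCA at position 35. Of all windows, 7.71% had at least 1 match to this pattern and 0.515% at least 2. The ETS core CCGGAA was present in 1 SPRY1 window and 1 SPRY2 window, against 17.2% of all windows. The cAMP response element TGACGTCA (1.85% of all windows) and the CArG box of serum response factor (1.29%) were in none of the member windows searched. The SPRED1 and SPRY4 windows held none of the motifs searched. These are matches of letters and were not tested for binding.

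The libraries held 18924327 to 19731609 estimated reads each, and 13824 genes passed the filter on low counts and were tested. CUEDC1 was 31.4, 33.8 and 32.0 counts scaled to a common library size (CPM) in shCUEDC1 1, 2 and 3, against 110, 109 and 93.3 CPM in shNC 1, 2 and 3, lower in every library labelled as knockdown. The library shNC 3 stood apart from its group. Over genes of at least 10 CPM, the SD of the log2 difference was 0.236 and 0.256 between shNC 3 and the other shNC libraries. The shCUEDC1 pairs had 0.117 to 0.124, and the pair of shNC 1 and shNC 2 had 0.107. The pairs that set shNC 1 or 2 against a shCUEDC1 library had 0.231 to 0.239, close to the distance of shNC 3 from its own group. Differences of the members, and counts over the lists, are therefore given with shNC 3 and without it. Leaving it out was decided on these same data. The scatter of shNC is then that of shNC 1 and 2, the closest pair, so p-values without shNC 3 may be too small. The 12 luminal markers examined (among them ESR1, GATA3 and KRT8) summed to 7210 to 7330 FPKM (fragments scaled to gene length and sequencing depth) in shCUEDC1. In shNC they summed to 5950 to 7280 FPKM, the lowest in shNC 3, and none was under 1 FPKM in any library. The markers did not move together in shNC 3. KRT8 was at 1232.08 FPKM there, against 1997.41 and 2021.91 FPKM in shNC 1 and 2. ESR1 was at 21.41 FPKM there, against 17.55 and 16.92 FPKM. Of 16 markers of other cell types, 12 stayed under 1 FPKM in every library and none was at 0 in all. They summed to 20.6 to 22.7 FPKM in shCUEDC1 and 16.3 to 28.6 FPKM in shNC, mostly from ACTA2, and their part in the values of the feedback genes was not tested.

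Per gene length, the members covered a wide range of levels, which is shown in the plot of FPKM by member. DUSP5 was the highest member of the set, at 11.3 ± 0.324 FPKM in shCUEDC1 and 9.38 ± 0.395 FPKM in shNC (SD, n = 3 each, as for all means here). SPRED2 followed with 9.02 ± 0.123 FPKM in shCUEDC1 and 9.34 ± 0.623 FPKM in shNC, and DUSP4 with 8.12 ± 0.182 FPKM in shCUEDC1 and 7.48 ± 0.883 FPKM in shNC. SPRY1 and SPRY2, Sprouty genes, stood in the middle. SPRY1 averaged 5.63 ± 0.415 FPKM in shCUEDC1 and 5.44 ± 1.27 FPKM in shNC, and SPRY2 averaged 3.13 ± 0.129 FPKM in shCUEDC1 and 4.07 ± 0.598 FPKM in shNC. DUSP6, SPRED1 and SPRY4 lay between 0.97 and 3.52 FPKM in all libraries. The PEA3 factors were near the bottom of detection, ETV4 at 0.15 to 0.34 FPKM and ETV5 at 0.06 to 0.20 FPKM. Over the 6 libraries, the ranges of neighbours in this order overlapped for DUSP5 and SPRED2, for DUSP4 and SPRY1, for SPRY2 and DUSP6, among DUSP6, SPRED1 and SPRY4, and for ETV4 and ETV5. The ranges did not overlap between SPRED2 and DUSP4, between SPRY1 and SPRY2, or between SPRY4 and ETV4. The sum over the 10 members was 40.5, 41.0 and 41.1 FPKM in shCUEDC1 1, 2 and 3. In shNC 1, 2 and 3 it was 38.4, 39.9 and 45.7 FPKM. The shCUEDC1 sums lay above those of shNC 1 and 2 and under that of shNC 3, and the difference was not tested.

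**Figure D1:**
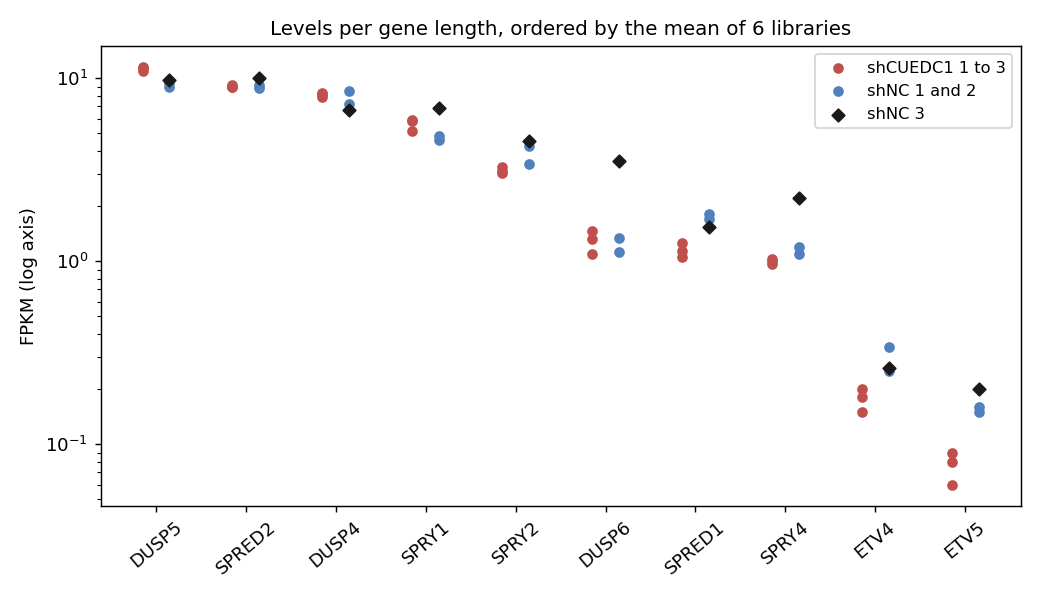
Levels of the 10 ERK feedback genes per gene length (deposited FPKM, log axis) in each of the 6 libraries, with shCUEDC1 and shNC as separate points. DUSP5, SPRED2 and DUSP4 lie highest, and ETV4 and ETV5 stay at or under 0.34 FPKM in every library.

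Of the 9 members tested, SPRED1 fell and DUSP5 rose in shCUEDC1 at an adjusted p below 0.05 (edgeR quasi-likelihood test, Benjamini-Hochberg adjustment over all 13824 genes). Over all genes 9.96% were called, 5.19% higher and 4.77% lower, so the 2 calls are given as single genes and not as a property of the set. Without shNC 3, SPRED1 was called lower and DUSP5 and SPRY1 higher among 10 members tested, where 28.1% of all genes were called (14.3% higher and 13.8% lower). SPRED1, SPRY2, SPRY4, DUSP5, ETV4 and ETV5 did not overlap between groups in CPM. Of the genes tested, 31.3% did not overlap, 15.7% with shCUEDC1 higher and 15.6% with shCUEDC1 lower. ETV5 passed the filter only through its shNC libraries and ETV4 did not pass it, so no share is drawn over the members. For each non-overlapping member the exact two-sided permutation p over libraries was 0.1, the smallest that 3 against 3 libraries can give. In bulk RNA, fewer cells with a transcript and less of it per cell cannot be told apart.

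**Figure D2:**
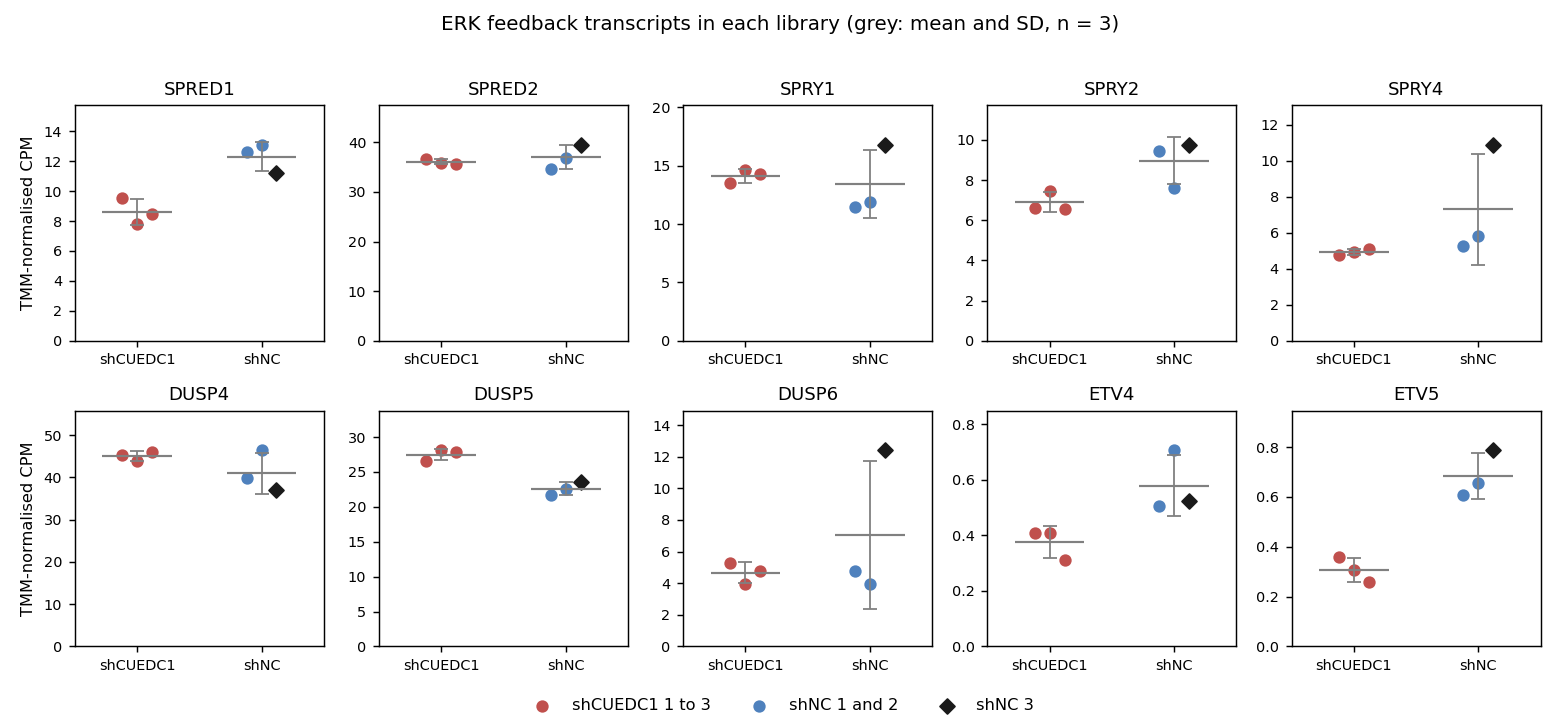
CPM of each ERK feedback gene in the 3 shCUEDC1 and the 3 shNC libraries, 1 panel per gene. The shCUEDC1 points lie under all shNC points for SPRED1, SPRY2, SPRY4, ETV4 and ETV5 and above them for DUSP5, while SPRY4 and DUSP6 each have 1 shNC library, shNC 3, far above the other libraries.

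SPRED1 (Entrez 161742, chromosome 15 from 38252326 to 38357249, plus strand, GENCODE v29 on GRCh38), the SPRED protein whose loss causes Legius syndrome, was at 9.53, 7.83 and 8.50 CPM in shCUEDC1 1, 2 and 3, against 12.6, 13.1 and 11.2 CPM in shNC 1, 2 and 3. Every shCUEDC1 library was under every shNC library, and shNC 3 was the lowest of its group. SPRED1 fell by 29.9%, a log2 change of -0.51 (SE 0.113, 95% interval -0.77 to -0.26, edgeR adjusted p = 0.0203). Without shNC 3 the log2 change was -0.57 (SE 0.108, edgeR adjusted p = 0.000135). Leaving out shCUEDC1 1 kept the call (edgeR adjusted p = 0.0448). The call was lost without shNC 1 (adjusted p = 0.0767), shNC 2 (0.0595), shCUEDC1 2 (0.107) or shCUEDC1 3 (0.0937), all by edgeR, with log2 changes between -0.50 and -0.45.

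SPRED2 (chromosome 2, minus strand), the other SPRED gene of the set, was at 36.7, 35.8 and 35.7 CPM in shCUEDC1 1, 2 and 3, against 34.6, 36.9 and 39.5 CPM in shNC 1, 2 and 3. The shCUEDC1 values fell inside the shNC range. Its log2 change of -0.04 had a 95% interval of -0.19 to 0.11 (edgeR adjusted p = 0.787), and it was 0.02 (-0.11 to 0.14) without shNC 3. Of the FPKM of both SPRED genes together, SPRED1 made up 12.1%, 10.5% and 11.3% in the shCUEDC1 libraries, against 16.2%, 16.3% and 13.3% in the shNC libraries. Its share was lower in every shCUEDC1 library, by a small margin against shNC 3. NF1, which encodes the neurofibromin that SPRED proteins recruit, named after its value was seen, had a log2 change of 0.06 (edgeR adjusted p = 0.577), and 0.13 without shNC 3 (edgeR adjusted p = 0.0359), where it was called higher.

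None of the 3 Sprouty members passed the test with all 6 libraries. SPRY1 (chromosome 4, plus strand), the most abundant Sprouty transcript per length, was at 13.5, 14.6 and 14.3 CPM in shCUEDC1 1, 2 and 3, against 11.5, 11.9 and 16.8 CPM in shNC 1, 2 and 3. The shCUEDC1 libraries lay above shNC 1 and 2 and under shNC 3. The log2 change was 0.07 (SE 0.141, 95% interval -0.24 to 0.39, edgeR adjusted p = 0.802). Without shNC 3 it was 0.27 (SE 0.0972, 95% interval 0.07 to 0.47, edgeR adjusted p = 0.0376), 20.4% higher in shCUEDC1. So the call of SPRY1 rests on leaving out that library.

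SPRY2 (chromosome 13, minus strand), which in growth factor signalling binds the adaptor GRB2 and the ubiquitin ligase CBL, was at 6.63, 7.47 and 6.58 CPM in shCUEDC1 1, 2 and 3, against 9.47, 7.61 and 9.76 CPM in shNC 1, 2 and 3. The groups did not overlap, but shCUEDC1 2 and shNC 2 nearly met. Its log2 change was -0.38 (SE 0.131, 95% interval -0.67 to -0.08, edgeR adjusted p = 0.105), and -0.30 without shNC 3 (95% interval -0.57 to -0.04, edgeR adjusted p = 0.0768), so it passed the threshold in neither fit.

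SPRY4 (Entrez 81848, chromosome 5 from 142310427 to 142326455, minus strand, GENCODE v29 on GRCh38), a Sprouty gene strongly induced by ERK in many cells, was at 4.79, 4.96 and 5.08 CPM in shCUEDC1 1, 2 and 3, against 5.27, 5.80 and 10.9 CPM in shNC 1, 2 and 3. The groups did not overlap, and the level in shNC 3 was 1.96 times the mean of shNC 1 and 2. The log2 change was -0.56 (SE 0.259, 95% interval -1.15 to 0.03, edgeR adjusted p = 0.219), and -0.16 without shNC 3 (SE 0.144, 95% interval -0.45 to 0.14, edgeR adjusted p = 0.455). Of the summed FPKM of the 3 Sprouty members, SPRY1 made up 55.9%, 58.1% and 59.0% in shCUEDC1 1, 2 and 3, against 46.3%, 51.1% and 50.5% in shNC 1, 2 and 3. The share of SPRY1 was higher in every shCUEDC1 library, shNC 3 included in the comparison. The level of SPRY1 itself was higher in shNC 3 (6.90 FPKM) than in shCUEDC1 (5.15 to 5.91 FPKM). Its share also moves with SPRY2 and SPRY4, which were lower in every shCUEDC1 library than in any shNC library. SPRY4 made up 9.82% to 10.5% in shCUEDC1 and 10.9% to 16.2% in shNC.

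Among the phosphatases, DUSP4 (chromosome 8, minus strand) and DUSP5 act in the nucleus and DUSP6 in the cytoplasm. DUSP5 (Entrez 1847, chromosome 10 from 110497838 to 110511544, plus strand, GENCODE v29 on GRCh38), which binds and dephosphorylates ERK, was at 26.6, 28.1 and 27.9 CPM in shCUEDC1 1, 2 and 3, against 21.7, 22.6 and 23.6 CPM in shNC 1, 2 and 3. Every shCUEDC1 library was above every shNC library, and shNC 3 was close to the rest of its group. DUSP5 rose by 21.6%, a log2 change of 0.28 (SE 0.0702, 95% interval 0.13 to 0.44, edgeR adjusted p = 0.0323). Without shNC 3 the log2 change was 0.32 (SE 0.0737, edgeR adjusted p = 0.00144). The call was lost without any other single library, with log2 changes between 0.25 and 0.31. The edgeR adjusted p was then 0.125 without shNC 1, 0.0758 without shNC 2, and 0.0901, 0.143 and 0.123 without shCUEDC1 1, 2 and 3. The annotation also holds the processed pseudogenes DUSP5P1 and DUSP5P2, not analysed here, and how the authors' counting placed reads shared with them is not given in the sources used here.

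DUSP4 was at 45.4, 43.8 and 46.1 CPM in shCUEDC1 1, 2 and 3, against 39.8, 46.4 and 36.9 CPM in shNC 1, 2 and 3. The groups overlapped, with shNC 2 above all shCUEDC1 libraries, and shNC 3 was the lowest library. The log2 change was 0.14 (SE 0.084, 95% interval -0.05 to 0.32, edgeR adjusted p = 0.354), and 0.07 without shNC 3 (95% interval -0.06 to 0.20, edgeR adjusted p = 0.456).

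DUSP6 (Entrez 1848, chromosome 12 from 89347232 to 89353271, minus strand, GENCODE v29 on GRCh38), the ERK-selective phosphatase whose window above holds 2 Capicua octamers, had 104, 77.0 and 92.0 estimated reads in shCUEDC1 1, 2 and 3, against 93.8, 79.0 and 237 in shNC 1, 2 and 3. In CPM these are 5.30, 3.94 and 4.77 in shCUEDC1, against 4.76, 3.98 and 12.4 in shNC. All libraries but shNC 3 lay together, and shNC 3 was at 2.85 times the mean of shNC 1 and 2. With shNC 3 the log2 change was -0.59 (SE 0.429, 95% interval -1.60 to 0.42, edgeR adjusted p = 0.453), and without it 0.10 (SE 0.165, 95% interval -0.24 to 0.44, edgeR adjusted p = 0.705). The sign of the DUSP6 difference therefore turned with that library, and neither value passed the threshold. Exons of DUSP6 overlap a gene on the other strand, AC024909.2, and whether the counting used strand is not given in the sources used here. Of the summed FPKM of the 3 phosphatase members, DUSP6 made up 7.15%, 5.35% and 6.30% in the shCUEDC1 libraries, against 7.57%, 5.91% and 17.6% in shNC 1, 2 and 3. DUSP5 made up 53.0%, 56.1% and 54.2% in shCUEDC1 1, 2 and 3, against 51.1%, 49.5% and 48.8% in shNC 1, 2 and 3, without overlap.

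The PEA3 factors were read from few fragments. ETV5 (chromosome 3, minus strand) had 6.97, 6 and 5 estimated reads in shCUEDC1 1, 2 and 3, against 12, 12.99 and 14.98 in shNC 1, 2 and 3. The groups did not overlap. In sum these are 17.97 reads in shCUEDC1 (exact Poisson 95% interval 10.6 to 28.4) and 39.97 in shNC (28.6 to 54.4), intervals that cover counting error only. The log2 change was -1.13 (SE 0.36, 95% interval -1.94 to -0.33, edgeR adjusted p = 0.0788), the largest difference among the members, and -1.02 without shNC 3 (edgeR adjusted p = 0.118). DESeq2 gave it no adjusted p.

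ETV4 (chromosome 17, minus strand) had 8.19, 7.99 and 6 estimated reads in shCUEDC1 1, 2 and 3, against 10, 14 and 10 in shNC 1, 2 and 3. The groups did not overlap, and the gene did not pass the filter on low counts. With no filter its log2 change was -0.61 (SE 0.429, 95% interval -1.53 to 0.32, edgeR adjusted p = 0.476), in a fit where 7.97% of all genes were called, 4.35% higher and 3.62% lower. Summed reads were 22.18 in shCUEDC1 (exact Poisson 95% interval 13.9 to 33.5) and 34 in shNC (23.5 to 47.5), which overlap. Exons of ETV5 overlap DGKG on the same strand, and exons of ETV4 overlap DHX8 on the other, so reads of neighbours cannot be told apart here. Neither factor passed the test.

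**Figure D3:**
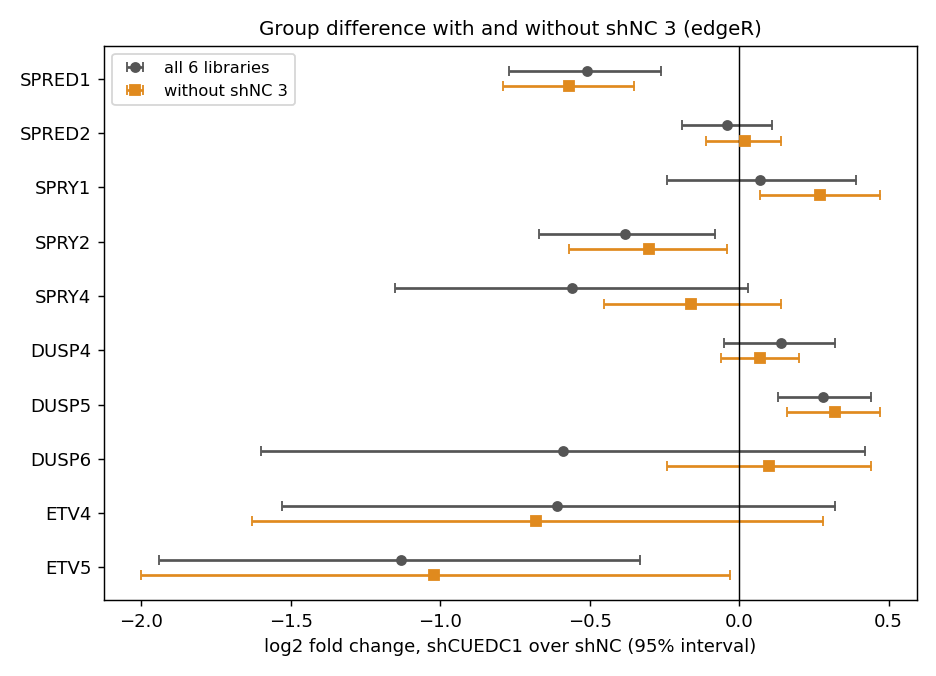
log2 fold change (shCUEDC1 over shNC) of each ERK feedback gene with its 95% interval, from all 6 libraries and from the 5 libraries without shNC 3. The ETV4 value from all 6 libraries is that of the fit with no filter on low counts. The intervals of SPRED1, SPRY2 and ETV5 stay under 0 and that of DUSP5 above 0 with both sets of libraries. They are not adjusted for the number of genes, and SPRY2 and ETV5 did not pass the adjusted threshold. The interval of SPRY1 clears 0 only without shNC 3, and the DUSP6 value goes to 0.10 without that library, against -0.59 with it.

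The position of shNC 3 inside its group was then described for each member, as its log2 CPM minus the mean of shNC 1 and 2. It was 1.49 for DUSP6, 0.96 for SPRY4 and 0.51 for SPRY1, and 0.28 for ETV5, 0.20 for SPRY2, 0.14 for SPRED2 and 0.09 for DUSP5. It was under 0 for ETV4 (-0.16), SPRED1 (-0.19) and DUSP4 (-0.22). So 3 of 10 members, SPRY1 only just, lay above 0.5 and none under -0.5, against 5.07% of all genes tested above 0.5. The median was 0.17 over the members, with the untested ETV4 included, and -0.0003 over all genes tested. The members were chosen with earlier results of these data known, and shNC 3 was set apart on these same data. These values are therefore a description. Only 0.615% of tested genes had a larger absolute shift than DUSP6, and 2.47% a larger one than SPRY4. The 3 members with the highest shift are Sprouty and phosphatase genes, but the shift was not shared across these families. SPRY2 (0.20), DUSP5 (0.09) and DUSP4 (-0.22) lay near the SPRED genes (-0.19 and 0.14).

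Other transcripts known to be induced by ERK, chosen here after their values were seen, gave values in both directions in shNC 3. EGR1, an immediate early zinc finger factor, was at 1.68, 1.43 and 1.35 CPM in shCUEDC1 1, 2 and 3, against 1.42, 2.02 and 4.98 CPM in shNC 1, 2 and 3. EGR3, of the same family, was at 3.06, 3.07 and 2.80 CPM in shCUEDC1, against 1.87, 1.76 and 7.71 CPM in shNC. Both had their highest value in shNC 3, as did ERRFI1, a feedback inhibitor of EGF receptor, with 84.5, 86.2 and 84.1 CPM in shCUEDC1 and 78.6, 82.8 and 116 CPM in shNC. AREG and EREG, ligands of EGF receptor that ERK also induces, were instead low in shNC 3. AREG was at 58.9, 60.8 and 59.8 CPM in shCUEDC1, against 115, 116 and 66.2 CPM in shNC 1, 2 and 3. EREG was at 2.80, 1.89 and 1.81 CPM in shCUEDC1, against 5.77, 6.05 and 1.73 CPM in shNC. EGR3 had a log2 change of -0.34 (edgeR adjusted p = 0.767), and 0.71 without shNC 3 (edgeR adjusted p = 0.013), so its sign turned with that library. For AREG the log2 change was -0.73 (edgeR adjusted p = 0.0806), and -0.95 without shNC 3 (edgeR adjusted p = 2.27e-16). For EREG it was -1.06 (edgeR adjusted p = 0.181), and -1.44 without shNC 3 (edgeR adjusted p = 3.39e-07). The p-values without shNC 3 carry the limit given above. Over the 19 tested genes of the list of other ERK-induced transcripts, the median shift of shNC 3 was 0.24, with 3 genes above 0.5 and 2 under -0.5. Over the 10 genes listed as other feedback inhibitors it was 0.08. Nothing in the labels sets shNC 3 apart, and the origin of its values was not tested.

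**Figure D4:**
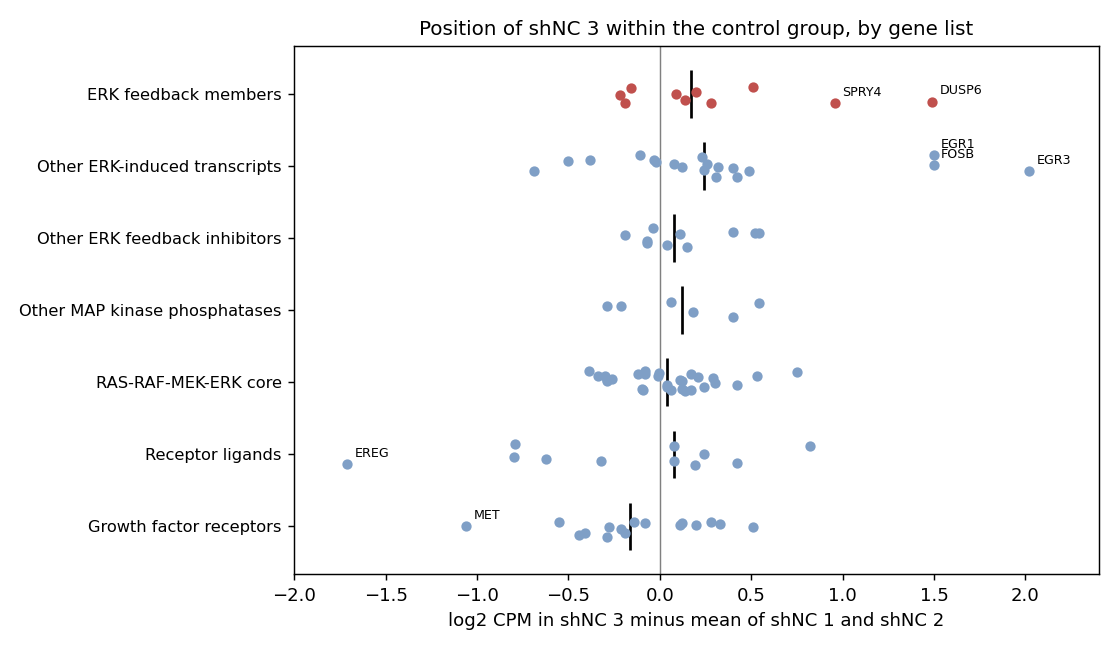
log2 CPM of shNC 3 minus the mean of shNC 1 and shNC 2, 1 point per tested gene of each pathway list, with the list medians. DUSP6 (1.49), SPRY4 (0.96) and SPRY1 (0.51) lie to the right among the feedback genes, whose median is 0.17, and the ligand list has 4 genes under -0.5.

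The rest of the pathway was described with lists of its parts, beside 5.19% of all tested genes called higher, 4.77% called lower and a median log2 change of -0.004. Without shNC 3 these were 14.3%, 13.8% and 0.0024. Of the 3 closest relatives of the members (SPRED3, SPRY3 and ETV1), SPRY3 rose and the others were not called, with or without shNC 3. SPRY3 was at 6.02, 6.50 and 5.70 CPM in shCUEDC1 1, 2 and 3, against 2.84, 3.38 and 4.77 CPM in shNC 1, 2 and 3. Its log2 change was 0.73 (edgeR adjusted p = 0.0395), and 0.97 without shNC 3 (edgeR adjusted p = 2.2e-05), and the call was lost without any other single library (adjusted p 0.0962 to 0.161). Of 6 tested other MAP kinase phosphatases, DUSP16, which acts mainly on JNK and p38, rose (log2 change 0.35, edgeR adjusted p = 0.0108) and 5 were not called, with a median of 0.04. Without shNC 3, 2 of them were called higher and 1 lower, with a median of 0.06. The call of DUSP16 was lost without shNC 1, shCUEDC1 2 or shCUEDC1 3 (edgeR adjusted p = 0.053, 0.0661 and 0.068).

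Upstream of the members, 2 of 16 tested growth factor receptors rose and 1 fell, with a median log2 change of 0.02. Without shNC 3, 4 were called higher and 4 lower, with a median of -0.04. ERBB2 and its partner ERBB3 rose, by log2 changes of 0.41 and 0.31 (edgeR adjusted p = 0.00405 and 0.0045), and both calls held in each of the 6 fits that left out 1 library. EPHA2, an ephrin receptor, fell by 0.77 on the log2 scale (edgeR adjusted p = 0.016). Of 11 tested genes listed as ligands none rose and 2 fell, with a median of -0.37. HBEGF, an EGF receptor ligand, fell by 0.79 and FGF12 by 0.83 (edgeR adjusted p = 0.0201 and 0.0243). FGF12, like FGF13 of the same list, is an intracellular member of the FGF family and not a secreted ligand. Without shNC 3, 1 gene of the list (TGFA) was called higher and 4 lower, AREG and EREG among them, with a median of -0.56. With 1 library left out, HBEGF was called only without shNC 3, and EPHA2 and FGF12 only without shNC 2 or shNC 3. The edgeR adjusted p otherwise reached 0.0919 for HBEGF, 0.0864 for EPHA2 and 0.12 for FGF12.

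In the RAS, RAF, MEK and ERK core, 4 of 29 genes rose and 1 fell, with a median log2 change of -0.006. Without shNC 3, 8 were called higher and 4 lower, with a median of 0.004. FRS2, the adaptor of FGF receptors, was at 224, 224 and 219 CPM in shCUEDC1 1, 2 and 3, against 126, 122 and 166 CPM in shNC 1, 2 and 3. It rose by 0.68 (edgeR adjusted p = 0.00549), a call that held in all 6 fits with 1 library left out. The scaffold GAB1 (0.30) and the RAF activator SHOC2 (0.21) also rose, with edgeR adjusted p of 0.0134 and 0.0182. The gene that fell was MAP2K1, which encodes MEK (-0.20, edgeR adjusted p = 0.0471), named after its value was seen, and none of the 29 was called lower with no filter on low counts. Of 14 tested RAS GTPase-activating proteins and partners of SPRED and Sprouty, 3 rose and 1 fell, with a median of 0.09. Without shNC 3, 5 of these were called higher and 2 lower, with the same median. The ubiquitin ligases SIAH2 (0.40), NEDD4 (0.21) and CBL (0.32) rose, with edgeR adjusted p of 0.0194, 0.0265 and 0.0274, and the GTPase-activating protein RASA3 fell by 0.48 (edgeR adjusted p = 0.0411). With 1 library left out, GAB1 was called only without shNC 2 or shNC 3, and SHOC2, SIAH2, NEDD4, CBL and RASA3 only without shNC 3. The edgeR adjusted p of these genes in the other such fits lay between 0.0562 and 0.16.

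Downstream, of the 10 genes listed as other feedback inhibitors none rose and 1 fell, with a median of -0.07. The gene that fell, FLRT3, is a membrane protein of FGF signalling and not an established inhibitor. It fell by 0.48 on the log2 scale (edgeR adjusted p = 0.0107). Without shNC 3, none of the 10 was called higher and 2 were called lower, with a median of -0.003. Of 19 tested other ERK-induced transcripts none rose and 3 fell, with a median of -0.24. Without shNC 3, 2 of the 19 were called higher (EGR3 and JUNB) and 6 lower, with a median of -0.15. The 3 that fell with all libraries were the matricellular genes CCN2 (-1.76) and CCN1 (-0.42), which are also targets of YAP, and the chromatin protein HMGA2 (-1.61), with edgeR adjusted p of 0.0135, 0.0168 and 0.0284. CCN2 and HMGA2 had fewer than 10 reads in every shCUEDC1 library and so passed the filter only through shNC, where they are high, and DESeq2 gave HMGA2 no adjusted p. With 1 library left out, CCN2 lost its call without shCUEDC1 1 or 3 (edgeR adjusted p = 0.0679 and 0.0719). CCN1 kept it only without shNC 2 or shNC 3 and HMGA2 only without shNC 3. In the remaining fits of this kind the edgeR adjusted p reached 0.0993 for CCN1 and 0.128 for HMGA2. FLRT3 lost it without any of the shCUEDC1 libraries (0.055 to 0.0679). Of 11 tested genes of Capicua and the ETS factors none rose and 2 fell, ETS2 by 0.49 and ATXN1, the partner of Capicua, by 0.27 (edgeR adjusted p = 0.0208 and 0.0473), with a median of -0.03. Without shNC 3, 1 of the 11 was called higher and 2 lower, with a median of -0.05. ETS2 kept its call only without shNC 3, and ATXN1 only without shNC 2 or shNC 3. In the remaining fits their edgeR adjusted p reached 0.1 (ETS2) and 0.194 (ATXN1). Among the 12 luminal markers SPDEF (0.33) and TFF1 (1.01) rose (edgeR adjusted p = 0.00209 and 0.00427), also with any 1 library left out, and of the 8 tested markers of other cell types none was called. Without shNC 3, 6 luminal markers were called higher and none lower, and of the markers of other cell types LUM was called higher (0.90) and TP63 (-0.45) and ACTA2 lower (edgeR adjusted p = 0.000143, 0.000299 and 5.5e-05). The highest of these per length, ACTA2, had a log2 change of -0.23 with all libraries (edgeR adjusted p = 0.495) and -0.43 without shNC 3.

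For the called members, the genes with the most similar profile over the 6 libraries were taken from 11871 tested genes of at least 1 FPKM. Likeness was the root-mean-square difference of centred log2 CPM, which uses the same libraries as the calls and is given as a description. For SPRED1 these were ASPH (0.0453), SLC4A11 (0.0474) and DLX3 (0.0539). ASPH was at 121, 109 and 118 CPM in shCUEDC1 1, 2 and 3, against 173, 174 and 150 CPM in shNC 1, 2 and 3, low in shCUEDC1 and lowest of its group in shNC 3, as SPRED1 was. For DUSP5 they were TNFAIP2 (0.0150), FAM110C (0.0204) and ERBB3 (0.0230). TNFAIP2 was at 290, 305 and 304 CPM in shCUEDC1 1, 2 and 3, against 237, 244 and 263 CPM in shNC 1, 2 and 3.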

How the data were processed

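Poly(A)-selected RNA of 6 T47D libraries was sequenced after random-primed cDNA synthesis, per the labels' protocols. Per the submitters' processing notes, the build was GRCh38 with patch p13. Aligner and counting program, with any strand setting, were not given in the sources used here. All values come from 1 deposited table with 17758 genes. Its estimated counts are named read counts per the file headers, are not normalised and are partly fractional. The FPKM values deposited beside them correct for library size and gene length. A further deposited signal column per library is the count times a nearly constant factor, and it was used only to check the scale.

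The estimated counts were rounded, filtered with filterByExpr (minimum count 10), normalised by TMM and compared with edgeR 4.0.16 (quasi-likelihood, robust) in R 4.3.3, without a replicate block. Benjamini-Hochberg adjustment ran over all 13824 tested genes, with a threshold of 0.05. CPM are TMM-normalised, and log2 CPM has a prior count of 2. Alternatives were RLE size factors, no filter, at least 1 CPM in 3 libraries, DESeq2 1.42.0, limma 3.58.1 (voom, and trend on log2(FPKM + 0.5) and log2(FPKM + 0.1)), the replicate block, and each library left out. Gene positions are from GENCODE v29, promoter windows from RefSeq (GRCh38.p14), and proteins and genome sequence were not used here.

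The members and lists were chosen with earlier results of these data known. Named genes are all members, CUEDC1, up to 4 called genes of each list with the smallest p (with no call, the gene of highest FPKM), and the 3 closest profiles of each called member. A gene that this rule takes is not reported here. Other genes named were chosen after their values were seen. At 18924327 to 19731609 reads per library, genes under 15 reads, such as ETV4 and ETV5, have wide intervals.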

Additional observations from a re-analysis of the deposited data

How the results depend on the processing

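The number of members called, 2, was 1 with limma on log2(FPKM + 0.1), where SPRED1 had an adjusted p of 0.05, and 2 in 6 other settings. With the replicate number as a block it was 1, because DUSP5 had an adjusted p of 0.054, and SPRED1 kept its call. Same-numbered libraries did not deviate together (r between -0.046 and -0.015). Such an r does not settle whether they share a batch, and the labels state none. The block gave 1117 calls over all genes. With 1 library left out, the count of members was 0 to 3, that of pathway list genes 3 to 49 against 22, and that of all genes 468 to 3925 against 1377. It was highest each time without shNC 3 (3, 49 and 3925). Over all genes it was 688 without shNC 1 and 513, 468 and 519 without shCUEDC1 1, 2 and 3. For the pathway lists it was 6 without shNC 1, 14 without shNC 2 and 4, 4 and 3 without shCUEDC1 1, 2 and 3. Those fits have fewer libraries. By pathway list, 10.0% to 33.3% of the tested genes were called with all libraries, against 9.96% of all genes tested. Without shNC 3, 28.1% of all genes were called. The lists were chosen with earlier results of these data known, so these shares are a description. With 1 library left out, log2 changes ran from -0.08 to 0.02 for SPRED2 and from -0.88 to 0.10 for DUSP6, both above 0 only without shNC 3. For SPRY1 they ran from -0.02 to 0.27, under 0 without shNC 1 (-0.02) and shNC 2 (-0.003) and called only without shNC 3 (0.27). The cause was not tested. Of 130 comparisons of a member with an alternative, 114 kept direction and side of the threshold, 11 lost the call, 1 gained it and 4 changed sign. All 11 were of SPRED1 and DUSP5, the only members with a call to lose. With 1 library left out, SPRED1 kept its call in 2 fits and DUSP5 in 1. In the other settings each kept it in 7 of 8. For the named list genes, 99 of 334 lost the call and none changed sign. The median of all genes stayed between -0.02 and 0.0024 on the log2 scale. Depth limits ETV4 and ETV5, at 15 reads or fewer per library.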
